A study of Homo sapiens with 11 samples.

Results

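Translation initiation factor genes encode the eIF proteins that bring a ribosome to the start codon of an mRNA. They were followed in MDA-MB-231, a human triple-negative breast cancer cell line, in wild-type (WT) cells and in cells depleted of the histone variant macroH2A1.1 (mH2A1.1 KD). The genes were chosen by name: protein-coding genes of the count tables on chromosomes 1 to 20 whose GENCODE symbol starts with EIF and a digit. This gave 48 genes of the 23167 identifiers in the tables. Symbols EIF2S3B and EIF3CL, also protein-coding on these chromosomes, have no row in the tables. EIF1AX, EIF2S3, EIF3D, EIF3L, EIF4ENIF1 and EIF1AY lie on other chromosomes and were left out by the rule.

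WT cells received the transfection reagent with no siRNA, and KD cells received an siRNA against mH2A1.1 at 11 nM. RNA was collected on day 3 from 2 libraries per group. There was no group with a non-targeting siRNA, so the loss of mH2A1.1 and the presence of an siRNA cannot be told apart. The labels do not say that the libraries came from separate cultures, and p-values measure only the spread between these libraries, which may be technical. ChIP-seq of mH2A1.1 and of total mH2A1 in MDA-MB-231 cells was available as 1 peak list each, without replicates. The promoter capture Hi-C samples and the ChIP-seq input were not analysed here. All values come from 1 cell line.

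Initiation starts when eIF2 carries the initiator tRNA, in a GTP-dependent way, to the small ribosomal subunit, where eIF1, eIF3 and eIF5 assemble with it. The eIF4F complex, made of the cap-binding protein eIF4E, the scaffold eIF4G and the helicase eIF4A, binds the mRNA 5′ end and recruits this small subunit, which then scans to the start codon. eIF2B recharges eIF2 with GTP, and 4 kinases that sense stress (encoded by EIF2AK1 to EIF2AK4) phosphorylate eIF2 and thereby block eIF2B. eIF5B joins the subunits, eIF5A helps peptide bonds form and carries hypusine, a modified lysine, and eIF6 keeps large subunits from joining too early. Cancer cells often depend on this step, and eIF4E, eIF5A2 and eIF6 have each been studied as factors that are raised in tumours.

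The libraries differed in depth and in base composition. Counts summed to 9794674 and 7856892 in WT replicates 1 and 2, and to 5584962 and 2309549 in KD replicates 1 and 2. KD replicate 2 had 30 counts in all on chromosomes 21, 22 and X, so the tests used the genes of chromosomes 1 to 20, of which 10943 passed a filter on low counts. On the log2 scale of CPM (counts scaled to library size), Pearson's r over these genes was 0.995 for the WT pair and 0.963 for the KD pair. In the fifth of genes with the highest GC content in exons, the median library value over the WT mean was 0.17 on the log2 scale in KD replicate 1 and 0.67 in KD replicate 2. In the fifth with the lowest GC content it was -0.24 and -0.74. MACROH2A1, whose counts join the mH2A1.1 and mH2A1.2 isoforms and therefore do not measure the targeted isoform by itself, stood at 385 and 394 CPM in WT and 274 and 301 CPM in KD. VIM, CD44, EGFR, CAV1 and AXL, markers that this line is known for, summed to 7031 and 7179 CPM in WT and 7687 and 10128 CPM in KD. Of 6 luminal and epithelial genes that this line is known to hold low, ESR1 and PGR were listed at 0 in all 4 libraries, CDH1 was at 0.378 to 2.5 CPM, GATA3 at 17.8 to 24.6 CPM and EPCAM at 19.9 to 24.2 CPM. KRT19 went against that list, at 261 and 287 CPM in WT and 487 and 657 CPM in KD (DESeq2 adjusted p = 0.00236). In all, 5 marker genes of blood, endothelial and fat cells summed to between 3.16 and 5.87 CPM, with CD79A and ADIPOQ at 0 in all 4.

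Promoter sequences were read for some of the genes compared below: EIF5A2 and its paralog EIF5A, EIF4G1 and EIF4E of the cap-binding complex, and EIF4A3 of the helicase family. Of these, DESeq2 called EIF5A2 and EIF4G1 as different in KD, and not EIF5A, EIF4E or EIF4A3. The RefSeq windows of EIF6 and EIF2AK2 overlap annotated transcripts and are not printed. EIF3G, also called by DESeq2, had no RefSeq window. Each sequence runs 5′ to 3′ on the strand of the gene and ends before the first transcript base of the gene in GENCODE, with letters from RefSeq on GRCh38.p14. Capitals mark CACGTG, the E box bound by MYC and related factors, and CGGAAG in either direction, the core of an ETS site.
EIF5A2 (chr3:170908645-170908887, minus strand): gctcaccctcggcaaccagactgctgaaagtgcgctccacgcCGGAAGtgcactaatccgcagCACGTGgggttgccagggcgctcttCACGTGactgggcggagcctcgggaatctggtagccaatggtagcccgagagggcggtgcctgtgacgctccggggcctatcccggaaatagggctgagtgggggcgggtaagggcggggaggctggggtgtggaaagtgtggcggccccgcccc
EIF5A (chr17:7306749-7306998, plus strand): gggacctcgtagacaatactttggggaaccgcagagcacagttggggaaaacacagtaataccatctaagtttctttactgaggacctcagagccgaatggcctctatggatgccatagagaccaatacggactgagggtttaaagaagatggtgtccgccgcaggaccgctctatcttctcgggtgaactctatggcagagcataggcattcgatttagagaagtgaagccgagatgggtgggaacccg
EIF4G1 (chr3:184314356-184314494, plus strand): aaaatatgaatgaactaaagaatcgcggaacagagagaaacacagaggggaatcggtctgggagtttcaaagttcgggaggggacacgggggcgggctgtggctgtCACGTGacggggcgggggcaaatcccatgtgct
EIF4E (chr4:98929134-98929383, minus strand): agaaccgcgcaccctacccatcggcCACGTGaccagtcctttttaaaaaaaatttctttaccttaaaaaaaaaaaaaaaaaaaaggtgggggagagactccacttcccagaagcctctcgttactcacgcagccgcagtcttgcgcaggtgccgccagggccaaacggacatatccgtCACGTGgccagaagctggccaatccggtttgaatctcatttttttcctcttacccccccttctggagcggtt
EIF4A3 (chr17:80147152-80147378, minus strand): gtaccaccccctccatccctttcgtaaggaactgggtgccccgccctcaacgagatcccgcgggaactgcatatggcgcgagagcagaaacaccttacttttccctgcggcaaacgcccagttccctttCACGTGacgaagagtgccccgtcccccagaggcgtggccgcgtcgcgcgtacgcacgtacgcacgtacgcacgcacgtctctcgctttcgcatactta

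The E box is present 2 times in the EIF5A2 and EIF4E sequences, 1 time in those of EIF4G1 and EIF4A3, and not at all in that of EIF5A, so the EIF5A and EIF5A2 promoters differ in these letters. For 41 of the 48 genes the RefSeq table held a window of 250 bases. These windows were not cut at the GENCODE start as the printed sequences are, so they can include transcribed bases. The EIF4G1 window holds 2 E boxes where the 139 printed bases hold 1. Of the 41 windows, 12 (29.3%) contained CACGTG, compared with 8.91% of the 8966 promoters of the same length from these genes and the genes tested. The 12 belong to EIF1B, EIF2AK2, EIF2B3, EIF3F, EIF3K, EIF4A3, EIF4B, EIF4E, EIF4EBP3, EIF4G1, EIF4H and EIF5A2. The E box is thus more frequent among the printed sequences than among the 41 windows, and the printed sequences do not stand for the group. The box nearest to the RefSeq start was 7 to 193 bases from it. The other letters searched on both strands were found at shares closer to those of all promoters. CGGAAG was in 31.7% of the 41 against 28.9% of all, the CCAAT box (CCAAT) in 43.9% against 35.5%, the TATA box (TATAAA) in 4.88% against 5.24%, and the GC box (GGGCGG) in 68.3% against 68.4%. The median GC content was 64.8% against 65.2%. A match is a run of letters, and binding was not measured.

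In WT cells most initiation factor genes were expressed well above the typical gene. Levels between genes are given as RPKM, reads per kilobase of summed exon length scaled to library size. The median over the 44 genes that passed the filter was 23.5 RPKM, compared with 7.21 RPKM over all genes tested, and 38 of the 44 were above that median. The levels of 17 genes were in the highest 10% of the genes tested. Together the 48 genes took 1.08% and 1.11% of the reads in WT and 1.20% and 1.11% in KD.

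EIF5A, the translation elongation and termination factor, had the highest level, at 170 and 180 RPKM in the WT replicates. EIF4G2, a scaffold related to eIF4G that lacks the eIF4E-binding part, followed at 159 and 160 RPKM. EIF4G1, the main eIF4G scaffold, had 137 and 151 RPKM. The ranges of these genes do not overlap. EIF1, which guards start codon choice, had 126 and 135 RPKM, and EIF3A, the largest eIF3 subunit, had 126 and 128 RPKM, within the range of EIF1. These neighbours do not differ beyond their spread. EIF6 was at 33.6 and 42.7 RPKM.

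At the other end, EIF4E3, a cap-binding homolog, had 0.484 and 0.365 RPKM and EIF2AK3, which encodes the endoplasmic reticulum stress kinase PERK, 1.51 and 1.41 RPKM. Of the 48 genes, 4 did not pass the filter on low counts. EIF4E1B, a cap-binding homolog known from germ cells, and EIF3K, a small eIF3 subunit, were listed at 0 in all 4 libraries. The elongation factor genes EEF1G and EEF1B2, which every cell uses, were listed at 0 too, so a value of 0 in these tables is not a measurement of absence. EIF4EBP3, which shares 73.2% of its exon bases with other genes on its strand, had 7 and 1 counts in WT and 1 and 0 in KD. EIF5AL1, an EIF5A-related gene, had 7 and 8 counts in WT and 4 and 5 in KD.

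Some genes share sequence with other genes, and the effect of this on their levels was not tested. EIF4A1 and EIF4A2 encode near-identical helicases of eIF4F, and EIF4A2 had 16.9 and 18.9 times the RPKM of EIF4A1 in the WT libraries. However, 47.4% of the exon bases of EIF4A1 also belong to other genes on the same strand, among them a readthrough transcript with SENP3, and htseq-count by default assigns reads there to no gene. EIF3C, at 2.74 and 3.44 RPKM in WT, has the near-identical copy EIF3CL, and reads that fit both would fail the filter on mapping quality. The order of these genes among the others is therefore uncertain. EIF1 had 8.98 and 10.2 times the RPKM of its paralog EIF1B.

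**Figure D1:**
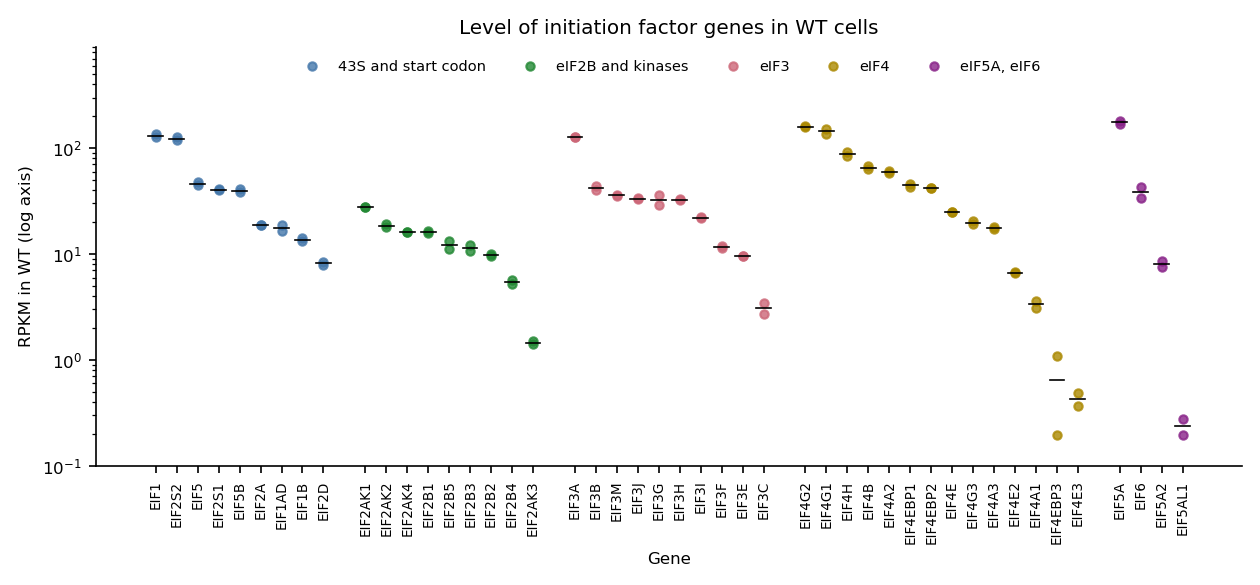
Level of each initiation factor gene in the WT libraries, as RPKM on a log axis, grouped by role. Points are the 2 WT replicates and bars their mean, and the genes at 0 in both replicates, EIF3K and EIF4E1B, are not drawn. EIF5A, EIF4G2, EIF4G1, EIF1 and EIF3A are at the top, with means of 127 RPKM or more.

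The next comparison asked whether depletion of mH2A1.1 went with a change in the mRNA of these genes. With edgeR's quasi-likelihood test, which was the test of this design, no gene passed both limits of the study (adjusted p below 0.1, change above 1.5-fold), neither among the 44 initiation factor genes nor among all 10943 genes (0.0% called). The smallest adjusted p was 0.175 among these genes as among all genes. At an unadjusted p under 0.05, with no limit on the fold, 8 of the 44 (18.2%) passed, compared with 2541 of 10943 (23.2%). With the fold limit, 3 were higher in KD (6.82%, background 9.49%) and 3 were lower (6.82%, background 9.39%). DESeq2, the tool used by the study, called 5 of the 43 genes to which it gave an adjusted p. Of these, 3 were higher (6.98%, background 5.57%) and 2 were lower (4.65%, background 5.78%). These shares are near the background. In bulk RNA, less RNA per cell and fewer cells with that RNA cannot be told apart.

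EIF6, EIF4G1 and EIF3G were higher in KD, and EIF5A2 and EIF2AK2 were lower, in the DESeq2 test. The direction of small differences was less balanced. Both KD libraries were above both WT libraries in 24 of the 44 genes (54.5%, background 32.5%) and below both in 10 (22.7%, background 32.4%). The median log2 fold change was 0.22, against 0.01 over all genes tested, and 31 of 44 were positive (70.5%, against 50.6% of all genes). The medians were similar in both KD libraries, 0.19 in replicate 1 and 0.22 in replicate 2 over the WT mean.

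**Figure D2:**
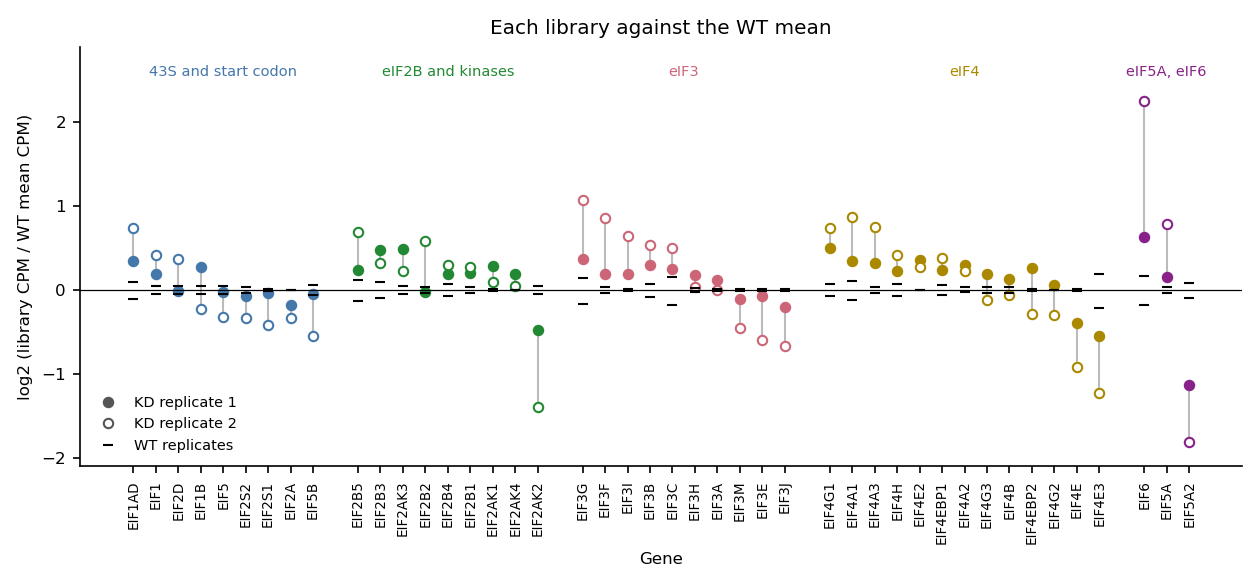
Log2 ratio of each library to the WT mean, from CPM, for the 44 genes that passed the filter, grouped by role and ordered by the edgeR fold change within each role. Filled circles are KD replicate 1, open circles KD replicate 2 and dashes the 2 WT replicates. EIF6 is highest and EIF5A2 lowest in both KD libraries, and both KD libraries lie on the same side of 0 for most genes.

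The genes with the largest difference in each direction were EIF6 and EIF5A2. EIF6 (ENSG00000242372, chr20:35278907-35284985, minus strand) had 53.2 and 67.7 CPM in WT and 93.5 and 288 CPM in KD. Both KD values were above both WT values, but KD replicate 2 was far above KD replicate 1, and the ratios to the WT mean were 1.55 and 4.77. The log2 fold change was 1.64 (SE 0.48), and edgeR gave an adjusted p of 0.193. DESeq2 gave an adjusted p of 0.00393. With KD replicate 2 left out, the log2 fold change in edgeR was 0.64, and with KD replicate 1 left out it was 2.25. The exons of EIF6 have a GC content of 61.4%, the second highest of the 44 genes, and share 17.3% of their bases with a further annotated gene on the same strand.

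EIF5A2 (ENSG00000163577, chr3:170888418-170908644, minus strand), the paralog of EIF5A that is low in most normal tissues, had 45.9 and 40.7 CPM in WT and 19.7 and 12.3 CPM in KD. All KD values lay below all WT values, at 0.454 and 0.284 of the WT mean. The log2 fold change was -1.38 (SE 0.26), with an adjusted p of 0.175 in edgeR and 0.00489 in DESeq2. With KD replicate 2 left out it was -1.14. EIF5A2 had the lowest GC content of the group, 33.9%. EIF5A itself had 441 and 467 CPM in WT and 506 and 782 CPM in KD, with a log2 fold change of 0.50 (SE 0.24, edgeR adjusted p = 0.242). The ratio of EIF5A to EIF5A2 in RPKM was 19.8 and 23.7 in WT and 53.1 and 131 in KD. This ratio is not corrected for base composition, and EIF5A exons have a GC content of 56.5%. In the fit corrected for length and GC content, described below, the log2 fold changes were 0.04 for EIF5A and -0.80 for EIF5A2.

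**Figure D3:**
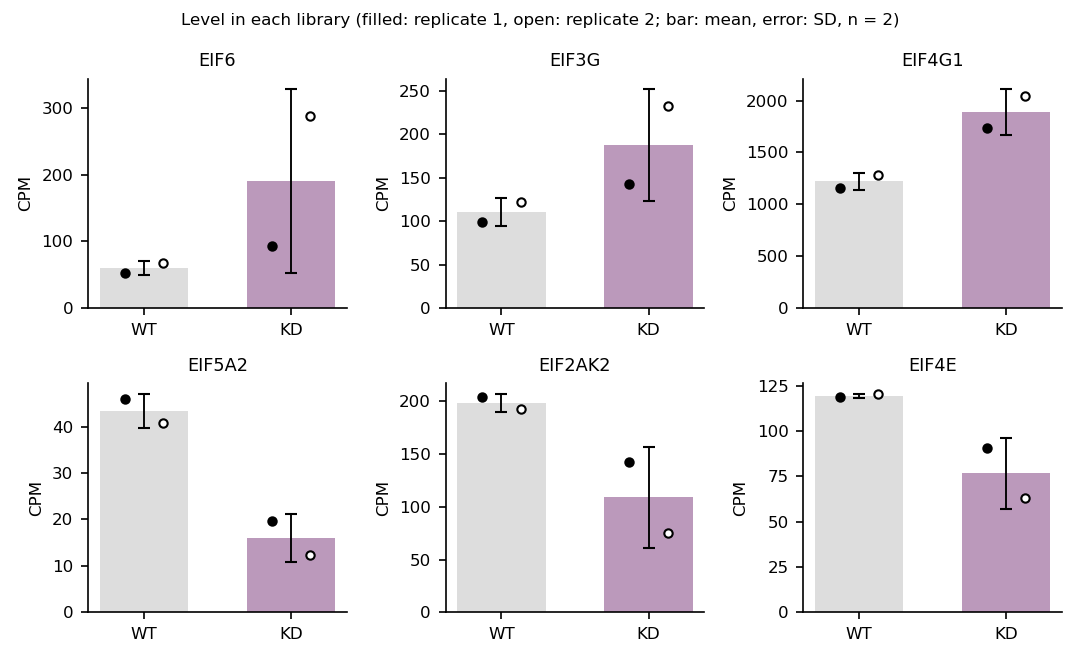
CPM of 6 initiation factor genes in each library. Bars are group means, error bars the SD of 2 libraries, filled points replicate 1 and open points replicate 2. Groups do not overlap in any of the 6 genes, and KD replicate 2 is farther from WT than KD replicate 1 in each of them.

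The eIF4 genes encode the cap-binding complex, its helicases, their helpers and its inhibitors. DESeq2 called EIF4G1 alone of them, as higher. Of the 13 tested, 10 had a positive and 3 a negative log2 fold change, with a median of 0.26 and a range from -0.74 to 0.63. EIF4G1 (ENSG00000114867, chr3:184314495-184335358, plus strand) had 1161 and 1280 CPM in WT and 1733 and 2043 CPM in KD. The groups did not overlap, and the KD libraries stood at 1.42 and 1.67 times the WT mean. The log2 fold change was 0.63 (SE 0.19), with an adjusted p of 0.193 in edgeR and 0.0745 in DESeq2. EIF4G2 had 1305 and 1313 CPM in WT and 1365 and 1062 CPM in KD, so its groups overlapped. The ratio of EIF4G1 to EIF4G2 in RPKM was below 1 in both WT libraries, at 0.862 and 0.945, and above 1 in both KD libraries, at 1.23 and 1.87. It is not corrected for GC content, which was 57.1% in EIF4G1 exons and 41.9% in those of EIF4G2. In the corrected fit described below, the log2 fold changes were 0.38 and 0.20.

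EIF4E (ENSG00000151247, chr4:98879276-98929133, minus strand), the cap-binding subunit, was lower in both KD libraries, with 119 and 120 CPM in WT and 90.6 and 63.0 CPM in KD. Its log2 fold change was -0.62 (SE 0.22), but neither edgeR (adjusted p = 0.193) nor DESeq2 (adjusted p = 0.128) called it. EIF4E3 had 5.06 and 3.82 CPM in WT and 3.03 and 1.89 CPM in KD, from 4 to 48 counts per library, and DESeq2 gave it no adjusted p because of its low counts. EIF4E2, a cap-binding homolog that represses translation, went the other way, with 73.9 and 74.4 CPM in WT and 95.0 and 89.9 CPM in KD. Its log2 fold change was 0.32 (SE 0.17, edgeR adjusted p = 0.279). The ratio of EIF4E to EIF4E2 in RPKM, not corrected for GC content, was 3.71 and 3.73 in WT and 2.20 and 1.62 in KD. In the corrected fit described below, the log2 fold changes were -0.25 and 0.49, and neither gene was called.

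Of the helicase genes, EIF4A1 had 18.1 and 15.5 CPM in WT and 21.4 and 30.8 CPM in KD (log2 fold change 0.59, SE 0.25, edgeR adjusted p = 0.218). EIF4A2 had 361 and 346 CPM in WT and 433 and 412 CPM in KD, a log2 fold change of 0.26 (SE 0.17, edgeR adjusted p = 0.358). EIF4A3, which is part of the exon junction complex and not of eIF4F, had 95.5 and 99.7 CPM in WT and 122 and 164 CPM in KD (log2 fold change 0.54, SE 0.20, edgeR adjusted p = 0.198). KD libraries were above WT libraries in all 3 helicase genes, and neither edgeR without correction nor DESeq2 called any of them. EIF4EBP1 and EIF4EBP2, which encode inhibitors of eIF4E, had log2 fold changes of 0.31 and 0.02, with edgeR adjusted p of 0.333 and 0.961.

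In the eIF3 complex, the scaffold that links the small subunit to eIF4G, 7 of the 10 subunit genes tested had a positive and 3 a negative log2 fold change, with a median of 0.24. EIF3G (ENSG00000130811, chr19:10115014-10119918, minus strand), an RNA-binding subunit that works in scanning, had 98.6 and 122 CPM in WT and 142 and 233 CPM in KD. The groups did not overlap, and the log2 fold change was 0.76 (SE 0.27), with an adjusted p of 0.193 in edgeR and 0.0893 in DESeq2. With KD replicate 2 left out it was 0.38. EIF3F had 166 and 176 CPM in WT and 195 and 311 CPM in KD (log2 fold change 0.56, SE 0.25, edgeR adjusted p = 0.227). EIF3J, a loosely bound subunit near the mRNA channel, had 102 and 99.2 CPM in WT and 87.2 and 63.0 CPM in KD (log2 fold change -0.40, SE 0.21, edgeR adjusted p = 0.269). EIF3E and EIF3M, with log2 fold changes of -0.31 and -0.27, were the other subunits on the negative side. EIF3A had 866 and 876 CPM in WT and 950 and 874 CPM in KD, so that its groups overlapped. EIF3C had 18.3 and 23.0 CPM in WT and 24.6 and 29.3 CPM in KD. Subunits of this 1 complex thus had values on both sides of 0, and DESeq2 called EIF3G alone of them.

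Of the genes for eIF2B and the eIF2 kinases, 8 of 9 had a positive log2 fold change, with a median of 0.24, and EIF2AK2 alone was negative. EIF2AK2 (ENSG00000055332, chr2:37099210-37157522, minus strand) encodes PKR, the kinase activated by double-stranded RNA, and is itself induced by interferon. It had 204 and 192 CPM in WT and 143 and 75.3 CPM in KD. The log2 fold change was -0.85 (SE 0.30), with an adjusted p of 0.193 in edgeR and 0.0664 in DESeq2. With KD replicate 2 left out it was -0.47. The other kinase genes had log2 fold changes of 0.20 (EIF2AK1, the heme-regulated kinase), 0.37 (EIF2AK3) and 0.12 (EIF2AK4, the amino acid-sensing GCN2). EIF2AK3 had 30.2 and 28.2 CPM in WT and 40.9 and 34.1 CPM in KD. In RPKM, not corrected for GC content, EIF2AK4 was at 0.846 and 0.902 of EIF2AK2 in WT and at 1.38 and 2.38 times in KD. In the corrected fit described below, the log2 fold changes were 0.36 for EIF2AK4 and -0.41 for EIF2AK2, and neither gene was called. The 5 genes of the eIF2B subunits, EIF2B1 to EIF2B5, ranged from 0.235 to 0.474 on the log2 scale, and none was called by edgeR or DESeq2.

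None of the genes of the 43S complex and start codon choice was called by edgeR or DESeq2. Their log2 fold changes ranged from -0.27 to 0.54 with a median of -0.16, and 4 of 9 were positive. EIF2S1 and EIF2S2, which encode the alpha and beta subunits of eIF2, had log2 fold changes of -0.20 and -0.19. EIF1 had 441 and 472 CPM in WT and 520 and 610 CPM in KD (log2 fold change 0.31, SE 0.18, edgeR adjusted p = 0.314). EIF1B had 25.6 and 24.1 CPM in WT and 30.1 and 21.3 CPM in KD, with overlapping groups. EIF1AD was placed in this class by its name, which refers to a domain like that of eIF1A. It had the highest value in the class, 0.54 (SE 0.21, edgeR adjusted p = 0.203), followed by EIF1 at 0.31.

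Differences of these genes followed base composition closely. Across the 44 genes, Pearson's r of the log2 fold change with the GC content of exons was 0.77 and Spearman's rho 0.81. These values share the same libraries, genes are not independent replicates, and over all genes tested r was 0.63. In the 14 genes with the lowest GC content, 33.9% to 41.5%, 10 log2 fold changes were negative, with a median of -0.27. In the 14 genes with the highest, 49.1% to 61.7%, all 14 were positive, with a median of 0.45. Without EIF6 and EIF5A2 r was 0.71. The relation was present in both KD libraries, with an r of 0.63 for replicate 1 and 0.79 for replicate 2. Summed exon length had an r of -0.26.

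A second fit corrected each library for smooth trends with GC content and exon length. In this fit the r with GC content over the 44 genes was 0.19. The r with log2 exon length was not removed but changed sign, from -0.26 to 0.23. Without EIF6 and EIF5A2 it went from -0.18 to 0.39, and over all genes tested from -0.22 to 0.17. Of 44 log2 fold changes, 37 were then positive (84.1%, against 52.1% of all genes), with a median of 0.26. Of the 13 negative values, 7 turned positive, in EIF5, EIF5B, EIF2A, EIF2S1, EIF3E, EIF3M and EIF4G2, and 1 positive value, of EIF4EBP1, turned negative. This fit called 4 genes higher in KD (9.09%, background 2.61%) and 1 lower (2.27%, background 3.53%), with edgeR adjusted p. EIF6 was among them, with a log2 fold change of 0.89 (SE 0.24, adjusted p = 0.0782), and so was EIF5A2, at -0.80 (SE 0.15, adjusted p = 0.0322). The others were EIF3F at 0.99 (adjusted p = 0.0952), EIF2AK3 at 0.80 (adjusted p = 0.0316) and EIF4A2 at 0.61 (adjusted p = 0.0515). EIF3E, EIF2AK3 and EIF3F have the longest summed exons of the 44 genes, at 37761, 20691 and 15136 bp. How far their corrected values follow length was not tested. EIF4G1, EIF3G and EIF2AK2 kept their direction at 0.38, 0.29 and -0.41 but were not called (adjusted p = 0.102, 0.182 and 0.122). EIF6 and EIF5A2 were the genes called both by DESeq2 and by the corrected fit.

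**Figure D4:**
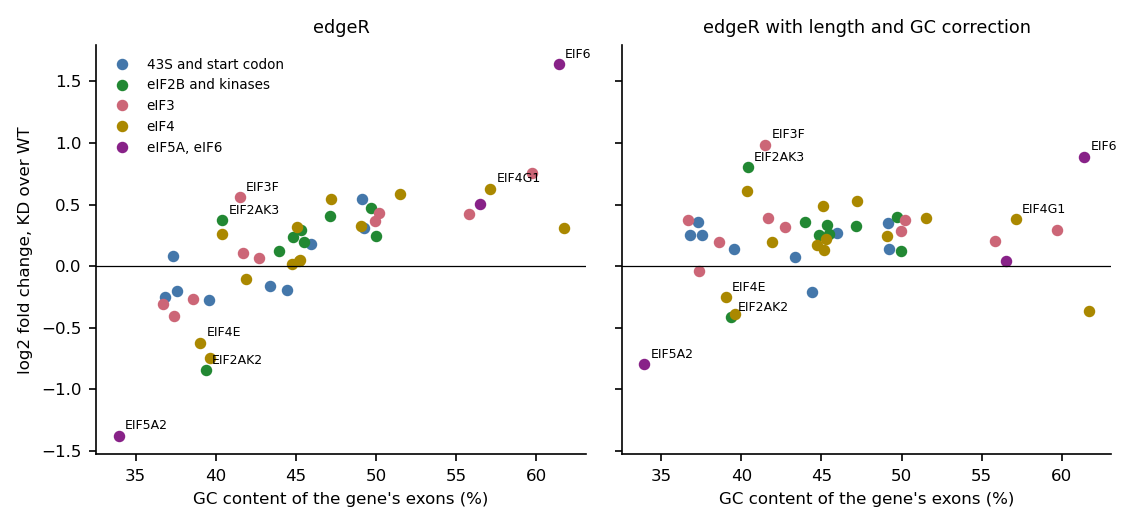
Log2 fold change of KD over WT for the 44 genes against the GC content of their exons, on the left from edgeR and on the right from edgeR with the length and GC correction, coloured by role. On the left the values climb with GC content (r = 0.77), and on the right the slope is nearly flat (r = 0.19). On the right EIF3F, EIF6 and EIF2AK3 are the highest and EIF5A2 the lowest.

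Neighbouring pathways were counted in the same tests, beside the DESeq2 shares over all genes of 5.57% higher and 5.78% lower and those of the corrected fit of 2.61% and 3.53%. The lists are short, so that 1 gene is a large share of each. Of 16 other genes that act in initiation, 14 were tested and DESeq2 called 3, all lower: DENR at -1.01 on the log2 scale by edgeR, PDCD4, an inhibitor of eIF4A, at -0.98, and ABCE1, which recycles ribosomes, at -0.76. DENR acts in reinitiation, and it was also called by the corrected fit, at -0.74 (edgeR adjusted p = 0.0346). PDCD4 was called by that fit at -0.60 (edgeR adjusted p = 0.054). Of 12 genes of the mTOR pathway, which controls eIF4E through its binding proteins, DESeq2 called MKNK2, a kinase of eIF4E, higher (0.71) and RICTOR lower (-0.89), and the corrected fit called none. Of 11 target genes of the integrated stress response tested, which are induced when eIF2 is phosphorylated, only ATF3 was called by DESeq2. It had 136 and 131 CPM in WT and 38.6 and 43.5 CPM in KD, a log2 fold change of -1.71 (SE 0.18, edgeR adjusted p = 0.175, DESeq2 adjusted p = 7.91e-08). ATF3 was called by the corrected fit as well, at -1.88 (edgeR adjusted p = 0.00166). DESeq2 gave no adjusted p to CEBPB, CHAC1, DDIT3 and SESN2. The other targets tested had edgeR log2 fold changes on both sides of 0, among them DDIT3 at 0.14 and TRIB3 at 0.73. Of 10 elongation and termination factor genes tested, DESeq2 called EEF2 (1.04), TUFM (0.97) and EEF1A1 (0.69) higher. It gave no adjusted p to EEF1E1, EEF2K, EEFSEC and TSFM, and the DESeq2 shares over all genes leave such genes out. EEF1A1 was called by the corrected fit as well, at 0.87 (edgeR adjusted p = 0.0704).

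The mH2A1.1 peaks were looked up at each gene to see where this variant lies on the initiation factor genes in WT cells. Peaks are made of bins of 3000 bp, and a peak was taken as common when it shared at least 1 bp with a peak of total mH2A1. A common peak lay within 500 bp of the transcription start site (TSS) of 14 of the 48 genes (29.2%), compared with 2871 of the 10943 genes tested (26.2%). Counting all mH2A1.1 peaks, the numbers were 24 of 48 (50.0%) and 46.9%. Total mH2A1 peaks lay at 8 of the 48 starts (16.7%, against 18.4%). Common peaks covered on average 11.3% of the gene bodies, against 16.7% over genes tested. The shares at the TSS were therefore near those of other expressed genes.

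The 14 genes with a common peak at the TSS were EIF1, EIF1AD, EIF2B2, EIF2B3, EIF2S2, EIF3A, EIF3B, EIF3G, EIF3J, EIF4E1B, EIF4EBP2, EIF4G2, EIF4G3 and EIF4H. The widths of these peaks ran from 3000 to 90000 bp, and the bases shared with total mH2A1 need not lie at the gene. Of the 14 genes, only EIF1AD, EIF3G, EIF3J, EIF4E1B, EIF4G2 and EIF4G3 had a total mH2A1 peak itself within 500 bp of the TSS. The EIF1 gene lay wholly inside 1 peak of 90000 bp (chr17:41610001-41700000), and EIF3G inside another of 90000 bp (chr19:10032001-10122000). EIF4E1B, listed at 0 reads, lay wholly inside a peak of 72000 bp (chr5:176607001-176679000). At 10 further genes the mH2A1.1 peak at the TSS shared no base with a total mH2A1 peak. Among them were the highly expressed EIF5A (18000 bp, chr17:7305001-7323000) and EIF4G1 (12000 bp, chr3:184311001-184323000). EIF4E and EIF2AK2 each had such a peak of 3000 bp, at chr4:98928001-98931000 and chr2:37155001-37158000. A separate total mH2A1 peak also lay within 500 bp of the EIF2AK2 TSS. EIF6 had no peak of either list at its TSS or over its body, and EIF5A2 had a total mH2A1 peak at the TSS but none of mH2A1.1. The EIF4G1, EIF4E, EIF4A3 and EIF5A promoter sequences above lie within mH2A1.1 peaks, and that of EIF5A2 does not.

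**Figure D5:**
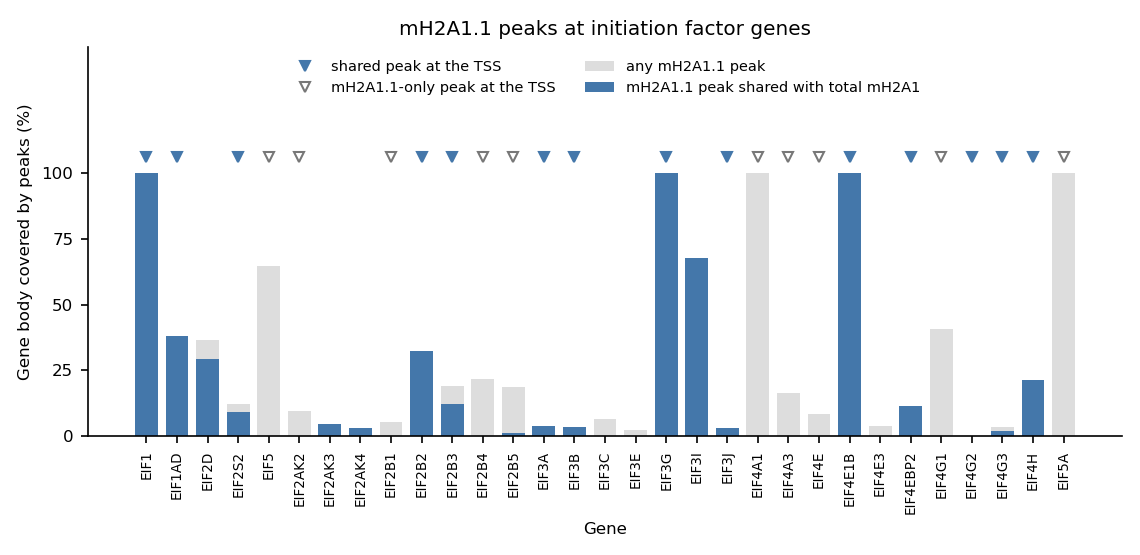
Share of each gene body covered by mH2A1.1 peaks, for the genes with a peak over the body or at the TSS. Blue bars are peaks shared with total mH2A1, grey bars all mH2A1.1 peaks, and triangles mark a peak within 500 bp of the TSS. EIF1, EIF3G and EIF4E1B are covered in full by mH2A1.1 peaks that share bases with total mH2A1, and EIF4A1 and EIF5A in full by peaks of mH2A1.1 alone. Total mH2A1 peaks themselves covered 0% of the EIF1 body, 20.9% of that of EIF4E1B and 100% of that of EIF3G.

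Genes with and without a common peak at the TSS were compared in level and in difference, as a description. The 13 tested genes with a common peak had a median WT level of 41.9 RPKM and a median log2 fold change of 0.29, and the 31 without one had 18.6 RPKM and 0.20. With the length and GC correction these medians were 0.22 and 0.27. Over all genes tested, the median WT levels were 7.82 RPKM with and 7.07 RPKM without a common peak. The median log2 fold changes over all genes tested were 0.28 with and -0.09 without one, and 0.04 and 0.01 with the correction. For total mH2A1 peaks at the TSS, the 7 tested initiation factor genes with one had medians of 19.8 RPKM and -0.11. The 37 without one had 24.8 RPKM and 0.24. With the correction the median log2 fold changes of these 7 and 37 genes were 0.20 and 0.27. Of the 5 initiation factor genes called by DESeq2, EIF3G had a common peak at the TSS. EIF4G1 and EIF2AK2 had an mH2A1.1 peak that shared no base with total mH2A1, and EIF6 and EIF5A2 no mH2A1.1 peak.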

How the data were processed

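The values come from RNA-seq (2 WT libraries, 2 of mH2A1.1 KD) and from ChIP-seq peak lists for mH2A1.1 and total mH2A1 (1 library each), with groups from the sample labels. The deposited counts per gene were made by the authors with STAR 2.5.1 on GRCh38, a mapping quality filter, duplicate removal and htseq-count at default parameters. The annotation release is not given in the sources used here, and it is not settled whether counting used the strand. Removal of duplicates lowers the counts of the most abundant genes. The deposited peak positions are the authors' normR calls against input, made on single libraries, and their scores are all 0.

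Genes were matched to GENCODE release 44 (106 identifiers unmatched), which gave exon length, GC content and TSS. The test, run on chromosomes 1 to 20, was that of edgeR 4.0.16 under R 4.3.3 (TMM, its filter on low counts, quasi-likelihood test, Benjamini-Hochberg adjustment over all genes tested), and DESeq2 1.42.0 was an alternative. A gene was called when its adjusted p was below 0.1 and it changed more than 1.5-fold. The SE of an edgeR log2 fold change was computed from the F statistic. CPM used TMM-scaled library sizes, and RPKM used summed exon length and the reads on the genes of chromosomes 1 to 20. The correction for length and GC content passed lowess trends (span 0.3) of log2 CPM to edgeR as offsets. The edgeR test without correction and DESeq2 were tried on simulated counts. These held no trend with GC content or length, so they do not test the correction. Depth ranged from 2309549 to 9794674 counts per library, which limits the precision of KD replicate 2 most.

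The genes and lists were chosen with earlier results of these data known. Values in every library were given for initiation factor genes called by edgeR or DESeq2, EIF6 and 4 paralog pairs. They were also given for the 5 highest and 5 lowest log2 fold changes and the 5 highest WT levels. EIF4E2, EIF4A3, ATF3 and initiation factor genes called by the corrected fit were added after their values were seen. Of the called genes of neighbouring pathways, ATF3 alone has its values in every library given. Promoter letters are from RefSeq, and the E box was singled out after its share was seen. Other normalizations, filters, gene sets, peak rules and each library left out in turn were tried.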

Additional observations from a re-analysis of the deposited data

How the results depend on the processing

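Against 0 genes called by edgeR in all, and 0 initiation factor genes, DESeq2 called 878 (3 initiation factor genes higher, 2 lower), edgeR without the filter on low counts 2143 (3 and 3), with the length and GC correction 672 (4 and 1), with a replicate block 2200 (3 and 3) and with the replicate block and that correction 801 (4 and 1). The labels give both groups replicate numbers 1 and 2, whose deviations correlated at 0.334, but nothing in the labels says that a number marks a shared day. Leaving out 1 library at a time gave between 2 and 4735 calls, 0 to 10 initiation factor genes higher and 0 to 5 lower. The most came without KD replicate 1, where KD replicate 2 stands alone and is assumed to vary like WT. Without KD replicate 2, edgeR called 908 genes, EIF6 and EIF5A2 among them. The cause of these shifts was not tested.

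Directions turned under the length and GC correction in EIF5 (0.071), EIF3E (0.38), EIF4G2 (0.20), EIF2S1 (0.25), EIF2A (0.25), EIF3M (0.20), EIF5B (0.14) and EIF4EBP1 (-0.37), and with the replicate block added to it the values were 0.075, 0.38, 0.20, 0.25, 0.26, 0.20, 0.14 and -0.41. EIF4EBP2 turned without the filter (-0.0024) and with the replicate block (-0.0043). With 1 library left out, these also turned, given as their lowest and highest values: EIF4B (-0.073 to 0.14), EIF4G3 (-0.13 to 0.20), EIF3A (-0.0040 to 0.13), EIF1B (-0.23 to 0.28), EIF4EBP2 (-0.29 to 0.27), EIF4G2 (-0.31 to 0.065), EIF2B2 (-0.018 to 0.58) and EIF2D (-0.0015 to 0.36). The other initiation factor genes tested kept their direction in every setting tried.

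Initiation factor genes with a peak at the TSS numbered 24 with all mH2A1.1 peaks and 9 when at least 50% of the peak had to be shared with total mH2A1, against 14. The median WT level over all 48 genes was 19.2 RPKM, 4.81 with the length from gene start to end and 18.6 with TMM-scaled library sizes. KD replicate 2 was the shallowest library, with 2309549 counts, and EIF4E3 rested on 4 counts there.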
